A study of Mus musculus with 24 samples.

Results

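The genes described here encode the vascular basement membrane, the sheet of matrix on which brain endothelial cells rest. They were chosen by name, with earlier results of these data known. They comprise the collagen IV chains Col4a1 and Col4a2, the laminin chains Lama4, Lama5, Lamb1 and Lamc1, and the linker Nid1 (nidogen-1). The others are the proteoglycan Hspg2 (perlecan) and the matrix glycoproteins Sparc and Fn1 (fibronectin). All 10 were found among the 20555 genes of the deposited tables. RNA was sequenced from endothelial cells (CD45- CD31+) and microglia (CD45+ CD11b low CD49d low) sorted from mouse brain slices. Before sorting, every slice had received either buffer alone (PBS, phosphate-buffered saline) or tumour exosomes stained with the dye PKH67, at 5 µg per slice, over 2 days. The exosomes were called wild type (WT) or came from the knockouts KO1 and KO2. The series title names the hyaluronan-binding protein CEMIP as the exosomal protein of interest. The knockouts concern the donors of the exosomes and not the mouse tissue, so no mouse gene checks these labels. The labels give no donor cell line, no mouse strain, age or genotype, and no count of slices pooled per library. They also give the exosome-positive sorting gate for the PBS samples, which received no exosomes. Libraries carry a letter, and all 3 letters were analysed for PBS and KO1 of the endothelial cells, with letters A and B of WT and B and C of KO2. In microglia all 3 letters were analysed for WT, KO1 and KO2, with A and B of PBS. The labels do not say whether libraries of a group came from separate animals, so the p-values speak only to variation among these samples, part of which could be technical.

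A basement membrane is built from 2 networks, one of laminin heterotrimers held at the cell surface by integrins and dystroglycan, and one of collagen IV heterotrimers, which nidogen and perlecan link to it. Endothelial laminins of the brain combine the alpha chains of Lama4 or Lama5 with the beta and gamma chains of Lamb1 and Lamc1. Collagen IV of the capillary wall consists of the chains of Col4a1 and Col4a2, and inherited defects in either gene weaken small brain vessels. SPARC is a secreted collagen-binding protein that takes part in collagen IV assembly, and fibronectin is an adhesive protein made in larger amounts by activated or newly forming vessels.

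The collagen IV pair is shown by sequence because its genes are transcribed away from each other from a shared start. In GENCODE M21 on GRCm38, exon 1 of Col4a1 covers chromosome 8 from 11312516 to 11312826 on the minus strand, and exon 1 of Col4a2 covers 11312805 to 11313114 on the plus strand. These first exons overlap by 22 bases, and the RefSeq gene records by 85 bases. The 22 bases are shown in capitals in the 30 bases below, read 5′ to 3′ on the plus strand from the RefSeq promoter table (GRCm38.p6, chr8:11312801-11312830).
Col4a1 and Col4a2: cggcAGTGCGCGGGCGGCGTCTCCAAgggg
These capitals hold GGGCGG, a GC box. Only reads that lie wholly within the overlap need strand to be assigned to one gene or the other. The sources used here do not say whether the counting used strand. The 22 bases are a small part of the longest coding transcripts, of 6615 bases for Col4a1 and 6450 for Col4a2.

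RefSeq promoter windows, from 250 bases before to 50 bases after the start, were at hand for 7 of the 10 members and were searched on both strands for the CCAAT box (CCAAT), the GC box (GGGCGG) and the AP-1 site (TGACTCA). The CCAAT letters stood once each in the windows of Col4a1, Col4a2, Lamb1 and Nid1, against 37.4% of 32851 promoters. GGGCGG stood in every window but that of Sparc, from 1 copy in Col4a1 and Nid1 to 5 in Hspg2, against 35.7% of promoters. TGACTCA stood in no member window, against 5.2% of promoters. The windows of Col4a1 and Col4a2 overlap, so a shared match counts in both. The Nid1 window is shown for the 199 bases that lie before exon 1 as GENCODE M21 annotates it, from 13437551, while the RefSeq start that sets the window is at 13437602 (chr13:13437352-13437550, plus strand, GRCm38.p6), with the CCAAT letters on the reverse strand (ATTGG) and GGGCGG in capitals.
Nid1: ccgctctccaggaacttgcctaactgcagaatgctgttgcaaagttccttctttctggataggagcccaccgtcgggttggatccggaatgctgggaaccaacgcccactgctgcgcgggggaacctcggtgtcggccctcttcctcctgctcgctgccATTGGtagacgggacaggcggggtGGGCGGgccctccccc
A match in these windows is a description of letters and not evidence that a factor binds there.

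The deposited values are log2-like values with a fixed lowest value, called the floor here, and normalised counts were recovered from them. A value at the floor corresponds to a recovered count of 0. The 10 endothelial libraries hold 25700000 to 28000000 normalised counts each, from an estimated 18300000 to 35600000 reads, and the 11 microglia libraries hold 27300000 to 29900000 normalised counts each. All 10 endothelial markers (Pecam1, Cldn5, Cdh5 and others) were above 100 counts in each endothelial library, with a summed level of 255659 to 324681. In the microglia libraries Ptprc stood at 1530 to 3979 counts and Csf1r at 697 to 2042, but P2ry12 was below 54.3 counts in every library and Cx3cr1 reached at most 155. Markers of choroid plexus and ependyma, led by Ttr, summed to 954 to 7386 counts in the PBS endothelial libraries and to 201633 to 359567 in the A and B libraries of the exosome groups. In KO1 C and KO2 C the sums were 6709 and 22988. Markers of fibroblasts and meninges summed to 593 to 1501 in PBS and 166 to 7960 in the exosome groups, and those of pericytes and smooth muscle to 2154 to 4501 and 432 to 8050. Astrocyte markers summed to 41739, 19109 and 25408 counts in PBS A, B and C and to 16670 and 9023 in WT A and B, so both WT libraries lay below PBS, as they did for 5 members. In the knockout libraries that sum was 13358 to 24396. Nearly all of it was Gja1 (connexin 43, at 7924 to 40600 counts), while neither Gfap nor Aqp4, defining genes of astrocytes, stood above 280.1 counts in any library. The part of these cells in the results below was not tested. In sorted bulk samples, fewer cells of a type and less RNA per cell cannot be told apart.

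Endothelial cells carried most of the members at high levels. By mean normalised count over the 10 libraries, Sparc ranked 12th of all 20555 genes, Col4a1 26th and Col4a2 42nd. Lamc1 ranked 149th, Fn1 266th, Lama4 747th, Nid1 891st, Lama5 1802nd, Lamb1 4893rd and Hspg2 11600th. Levels of different genes were compared per kilobase of the longest annotated coding transcript, in the 3 PBS libraries. This assumes that reads cover that transcript evenly, which was not tested. Sparc led with 56490 ± 14780 counts per kb (SD, n = 3). Col4a1 followed with 12910 ± 2726 and Col4a2 with 8705 ± 1791, and Col4a1 was the higher of this pair in each of the 3 libraries although the ranges overlapped. Lamc1 stood at 3382 ± 499, clear of both neighbours in the order. Fn1 (1479 ± 222), Nid1 (1189 ± 135) and Lama4 (1043 ± 85.0) had ranges that overlapped from one to the next. Lama5 (367 ± 99.5), Lamb1 (87.7 ± 62.9) and Hspg2 (3.41 ± 5.91) came last, each below the range of the member before it.

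The laminin chains did not stand at equal levels. A heterotrimer holds 1 alpha, 1 beta and 1 gamma chain, whereas the transcript level of the gamma chain Lamc1 was above that of both alpha chains and of the beta chain Lamb1 in each PBS library. The other vascular beta chain, Lamb2, was measured at 2452 ± 294 counts in PBS (n = 3), more than the 507 ± 364 of Lamb1, both without division by length.

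With a filter on a mean of at least 0.25 log2 units above the floor, 7117 endothelial genes and 10442 microglia genes were tested. The filter kept 9 of the 10 members in endothelial cells, all but Hspg2, and 4 in microglia (Sparc, Lamc1, Col4a1 and Col4a2). The members nearest to it were Lamb1 in endothelial cells (mean 0.41 above the floor) and Col4a2 in microglia (0.30) inside it, and Fn1 in microglia (0.23) and Hspg2 in endothelial cells (0.02) outside it. No member passed an adjusted p of 0.05 in any of the 5 comparisons in either cell type (limma, Benjamini-Hochberg adjustment over all genes tested). The share of all genes that passed was as small, at 0.0141% (1 of 7117) for WT minus PBS in endothelial cells and 0.0281% (2 of 7117) for knockout minus WT. It was 0% for the other 3 endothelial comparisons.

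**Figure D1:**
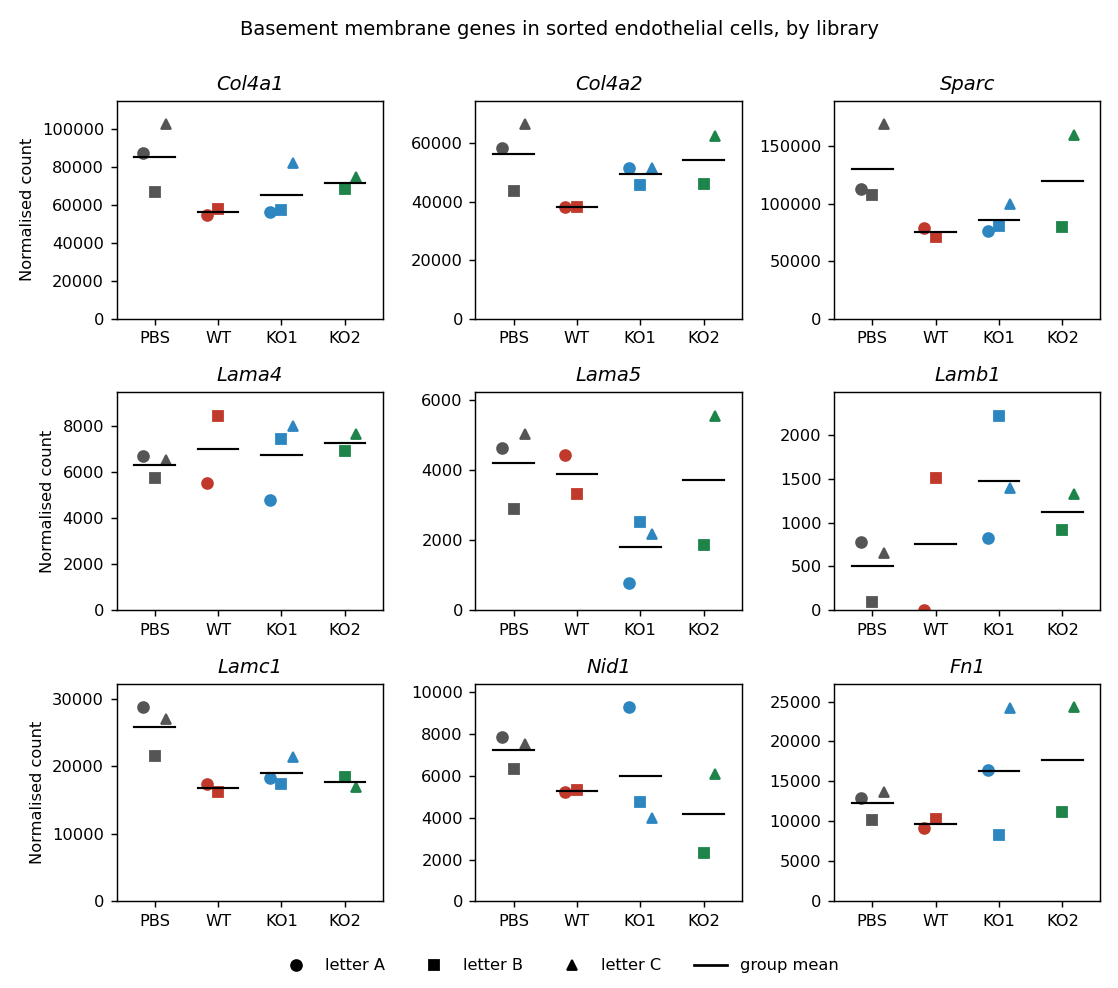
Normalised counts (vertical axis, from 0) of 9 members in each endothelial library, by exosome group (horizontal axis). Points are libraries with a shape for the replicate letter, lines are group means. The WT points lie below all PBS points for Col4a1, Col4a2, Sparc, Lamc1 and Nid1.

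WT exosomes against PBS asks what exosomes of unmodified donors do to the vessel cells. In endothelial cells 8 of the 9 tested members were lower on average with WT exosomes on the deposited log2 scale. Their median log2 difference, over all 9, was -0.17, against -0.0056 over all 7117 genes, of which 51.8% were lower. The differences of Lamb1 (-0.024) and Lama5 (-0.029) were close to 0. In mean counts Lamb1 was higher with WT, at 754 against 507 in PBS. For 5 members, Col4a1, Col4a2, Lamc1, Nid1 and Sparc, both WT libraries lay below all 3 PBS libraries, as did 17.4% of all genes tested. The members were chosen with earlier results of these data known, so such shares describe them and do not test them as a set. At an unadjusted p below 0.05 there were 4 of the 9 members, Lamc1, Col4a1, Col4a2 and Sparc, against 10.9% of all genes. The differences of these 4 were the same in direction in every alternative analysis, and none passed after adjustment. Since WT and PBS did not overlap for these 4, leaving out libraries or changing the filter or pseudocount could not have reversed the direction.

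Col4a1, the collagen IV alpha 1 chain, had 87090, 66590 and 102500 normalised counts in PBS A, B and C. It had 54670 and 57780 in WT A and B. Letters A, B and C of KO1 held 56200, 57190 and 82220 counts, and KO2 B and C held 68330 and 74380. The WT libraries and KO1 A and B formed the low end, and the knockout libraries overlapped PBS through KO1 C, KO2 B and KO2 C. The WT mean was 0.658 of the PBS mean, a log2 difference of -0.47 on the deposited scale (95% interval -0.87 to -0.06, adjusted p = 0.402, limma).

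Its partner Col4a2, the alpha 2 chain, had 58340, 43650 and 66440 counts in PBS A, B and C and 38030 and 38230 in WT A and B. It had 51360, 45790 and 51480 in KO1 A, B and C, and 46030 and 62520 in KO2 B and C. The 2 WT libraries were the lowest of the 10, below every PBS and every knockout library. The WT mean was 0.679 of PBS (log2 difference -0.40, 95% interval -0.74 to -0.05, adjusted p = 0.405, limma).

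Sparc, the most abundant member, had 112900, 107800 and 169100 counts in PBS A, B and C, and 79130 and 71330 in WT A and B. Letters A, B and C of KO1 held 75850, 80930 and 99930 counts, and KO2 B and C held 79860 and 159600. PBS C and KO2 C were the highest of the 10 libraries, and all exosome libraries other than KO2 C lay below PBS. The WT mean was 0.579 of PBS, the largest drop in mean count among the 9 tested members (log2 difference -0.64, 95% interval -1.21 to -0.08, adjusted p = 0.408, limma). Without the C libraries the log2 difference was -0.46. The authors' deposited table lists Sparc with an adjusted p of 0.0125 for any difference among the 4 endothelial groups.

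Among the laminins, Lamc1, the gamma 1 chain shared by the vascular laminins, separated most clearly. It had 28790, 21500 and 27040 counts in PBS A, B and C and 17400 and 16190 in WT A and B. It had 18240, 17440 and 21320 in KO1 A, B and C, and 18460 and 16940 in KO2 B and C. All 7 exosome libraries lay below all 3 PBS libraries, narrowly so for KO1 C against PBS B. Lamc1 was the only member for which that held, against 1.41% of all genes that were lower without overlap. The log2 difference was -0.36 for WT (95% interval -0.60 to -0.12, adjusted p = 0.324, limma) and -0.31 for the mean of the 3 exosome groups (-0.49 to -0.13, adjusted p = 0.375). The WT mean was 0.652 of the PBS mean in counts, and on log2 of recovered counts plus 50 the WT difference was -0.61. In that pooled comparison Lamc1 and Col4a1 had an unadjusted p below 0.05, against 8.14% of all genes. Within each letter that held both groups, the exosome library had 0.604 to 0.859 of the count of the PBS library, and the lack of overlap already requires ratios below 1. The authors' deposited table lists Lamc1 with an adjusted p of 0.0428 among the 4 groups. Of the 20555 genes with deposited values, 14164 stood above the floor in at least 1 endothelial library and 7117 passed the filter used here. The authors' table lists 362 endothelial genes, and no other member is among them. Its log2 fold changes belong to a contrast that is not stated, so the listing gives no direction.

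The alpha and beta chains did not share that pattern. Lama4, the alpha 4 chain typical of endothelium, had 5723 to 6693 counts in PBS, 5534 and 8443 in WT, 4779 to 7969 in KO1, and 6893 and 7630 in KO2. The groups overlapped throughout, and its log2 difference for WT minus PBS was 0.05 (95% interval -0.18 to 0.28, limma). Lama5, the alpha 5 chain, had 4631, 2893 and 5022 counts in PBS A, B and C and 4436 and 3318 in WT A and B. It had 770, 2498 and 2155 in KO1 A, B and C, and 1864 and 5550 in KO2 B and C. All 3 KO1 libraries and KO2 B lay below PBS and WT, while KO2 C was the highest of the 10. The share of all genes with KO1 below PBS and WT was not computed. The mean of the knockouts minus PBS was -0.20 on the log2 scale (95% interval -0.44 to 0.05, adjusted p = 0.854, limma). In mean counts the knockouts stood at 0.659 of PBS.

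Lamb1, the beta 1 chain, was close to the floor. It had 776, 93.1 and 653 counts in PBS A, B and C, while WT A stood at the floor and WT B at 1508. Letters A, B and C of KO1 held 822, 2223 and 1394 counts, and KO2 B and C held 919 and 1322. All 5 knockout libraries were above all PBS libraries, against 2.75% of all genes that were higher without overlap, and the WT libraries stood on both sides. The log2 difference of the knockout mean from PBS was 0.21 (95% interval -0.06 to 0.47, adjusted p = 0.858, limma). The deposited scale compresses differences, most of all this near to the floor.

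The linkers were of unequal abundance. Nid1, which joins laminin to collagen IV, had 7878, 6313 and 7531 counts in PBS A, B and C and 5233 and 5306 in WT A and B. It had 9297, 4732 and 4003 in KO1 A, B and C, and 2291 and 6074 in KO2 B and C. WT lay below PBS, at 0.728 of its mean, while the knockout libraries spanned from the lowest to the highest value of all 10. The log2 difference for WT was -0.17 (95% interval -0.49 to 0.15, adjusted p = 0.727, limma). Hspg2, whose protein perlecan carries heparan sulfate, stood at the floor in 9 of the 10 libraries and at 145 counts in PBS C, so it did not pass the filter. Without a filter its difference for WT minus PBS was -0.058 (adjusted p = 0.756, limma).

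Fn1, which encodes fibronectin, had 12970, 10210 and 13710 counts in PBS A, B and C and 9126 and 10300 in WT A and B. Letters A, B and C of KO1 held 16450, 8243 and 24250 counts, and KO2 B and C held 11150 and 24330. KO1 C and KO2 C were far above the rest, and KO1 B was the lowest of the 10, so the knockout groups spanned PBS and WT. The log2 difference for WT minus PBS was -0.16 (95% interval -0.63 to 0.32, adjusted p = 0.843, limma).

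**Figure D2:**
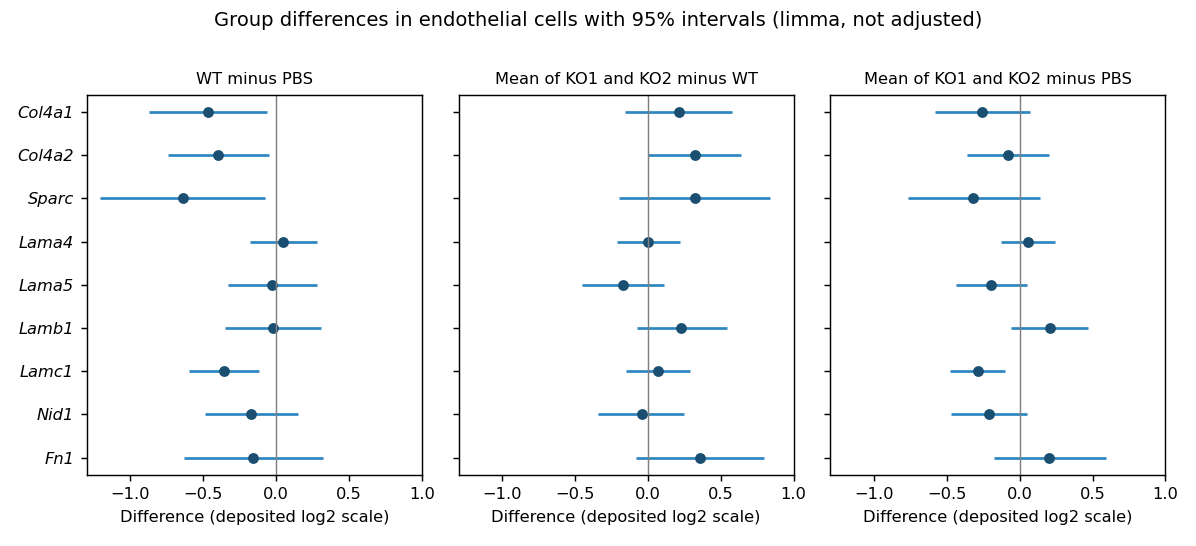
Differences between groups in endothelial cells on the deposited log2 scale (horizontal axis) for 9 members (vertical axis), with 95% intervals from limma that are not adjusted for the number of genes. For WT minus PBS the intervals of Col4a1, Col4a2, Sparc and Lamc1 lie below 0, and for knockout minus WT every interval includes 0.

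Knockout against WT exosomes asks whether the targeted protein of the donors matters for these genes. In endothelial cells 7 of the 9 members were higher on average with knockout exosomes, with a median log2 difference of 0.21, against 0.00086 over all genes, of which 50.4% were higher. This comparison shares the WT libraries with WT minus PBS, so the 2 sets of differences are not independent. No member had an unadjusted p below 0.05, against 9.2% of all genes. Col4a2 was the only member whose knockout libraries all lay above both WT libraries, as did 5.28% of all genes. Its log2 difference was 0.32 (95% interval -0.003 to 0.64, adjusted p = 0.538, limma), and 1.36 as a ratio of mean counts.

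The remaining knockout differences were smaller against their spread. Fn1 differed by 0.36 on the compressed log2 scale (95% interval -0.08 to 0.80), with a ratio of mean counts of 1.75, and by 0.11 without the C libraries. Sparc differed by 0.32 (-0.20 to 0.84), with a ratio of mean counts of 1.36, and by 0.06 without the C libraries. Without KO2 C alone they were 0.21 for Fn1 and 0.11 for Sparc. KO1 C and KO2 C are the exosome libraries with low choroid plexus markers, and the part of that difference in these values was not tested. Col4a1 differed by 0.21 (-0.16 to 0.58) and Lamc1 by 0.07 (-0.15 to 0.29). Lamb1 differed by 0.23 (-0.07 to 0.54), by -0.05 without WT A, which stood at the floor, and by 3.82 as log2 of recovered counts plus 5, and it passed in none of these. Lama4 (0.003, -0.21 to 0.22), Nid1 (-0.04, -0.34 to 0.25) and Lama5 (-0.17, -0.45 to 0.11) also had intervals that include 0.

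For the knockout mean minus PBS, Lamc1 had the smallest p of the members, with a difference of -0.29 (95% interval -0.48 to -0.10, adjusted p = 0.667, limma), with all 5 knockout libraries below PBS, against 2.7% of all genes. It was the 1 member with an unadjusted p below 0.05, against 5.97% of all genes. Col4a1 (-0.26, 95% interval -0.58 to 0.07) and Sparc (-0.32, -0.77 to 0.14) were lower on average with overlapping groups. Within the letters, Sparc stood at 0.591 to 0.944 of the count of the PBS library in all 7 pairs of an exosome and a PBS library. These pairs reuse the same PBS libraries, and the share of all genes lower in every pair was not computed. Every tested member other than Sparc and Lamc1 had pairs on both sides of PBS, with Col4a1 reaching 1.03 in KO2 B. Col4a2 differed from PBS by -0.08 (-0.36 to 0.20). The 2 knockouts overlapped for all 9 endothelial members, while KO1 lay wholly below KO2 for 8.92% of all genes and wholly above for 8.57%. No member had an unadjusted p below 0.05 between them, against 6.06% of all genes.

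The collagen IV chains went up and down together across endothelial libraries. Over the 10 libraries Col4a1 and Col4a2 had a Pearson r of 0.81 (permutation p = 0.00516, adjusted p = 0.0206 over 8 relations) and a Spearman rho of 0.81 (permutation p = 0.00714, adjusted p = 0.0343). Without the 2 libraries farthest from the median of Col4a1, r was 0.62. Col4a1 and Sparc had an r of 0.81 as well (permutation p = 0.00467, adjusted p = 0.0206) and a rho of 0.79 (permutation p = 0.00857, adjusted p = 0.0343), with 0.67 without the 2 farthest libraries. After the group means were subtracted, r was 0.72 for the collagen pair (adjusted permutation p = 0.0767) and 0.64 for Col4a1 with Sparc (0.125), so neither passed within groups.

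**Figure D3:**
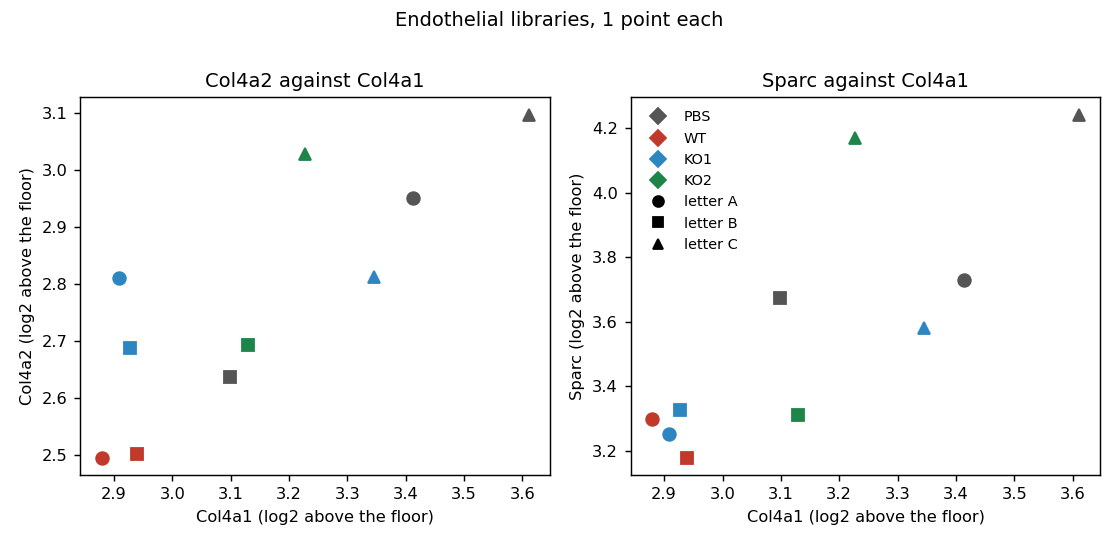
Col4a2 (left) and Sparc (right) against Col4a1 in the 10 endothelial libraries, all as log2 units above the floor of the deposited scale. Colour gives the group and shape the replicate letter. WT A and WT B lie at the low end of all 3 genes, and PBS C at the high end.

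The laminin and nidogen pairs did not show this. In endothelial cells Lamc1 and Nid1 had an r of 0.39 (permutation p = 0.269, adjusted p = 0.431) and Lamb1 and Lamc1 an r of -0.16 (permutation p = 0.684, adjusted p = 0.782). In microglia none of the 4 pairs passed, and only Sparc and Lamc1 are well above the floor there.

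Likeness to other genes was taken as Pearson's r over the same 10 libraries, as a description. Of the 7116 other genes tested, Cttnbp2nl (r = 0.959), Cebpg (0.925) and Pcmtd1 (0.922) were most like Col4a1, whereas Lamc1 (0.825), Sparc (0.810) and Col4a2 (0.808) came 53rd, 74th and 79th. Those most like Sparc were Tiam1 (0.933), Hid1 (0.927) and Uhrf2 (0.913), and Col4a2 (0.840) came 23rd. Those most like Fn1 were Armc7 (0.917), Arhgef28 (0.902) and Mtres1 (0.884). For each of these 3 members the 3 most alike genes were not members.

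**Figure D4:**
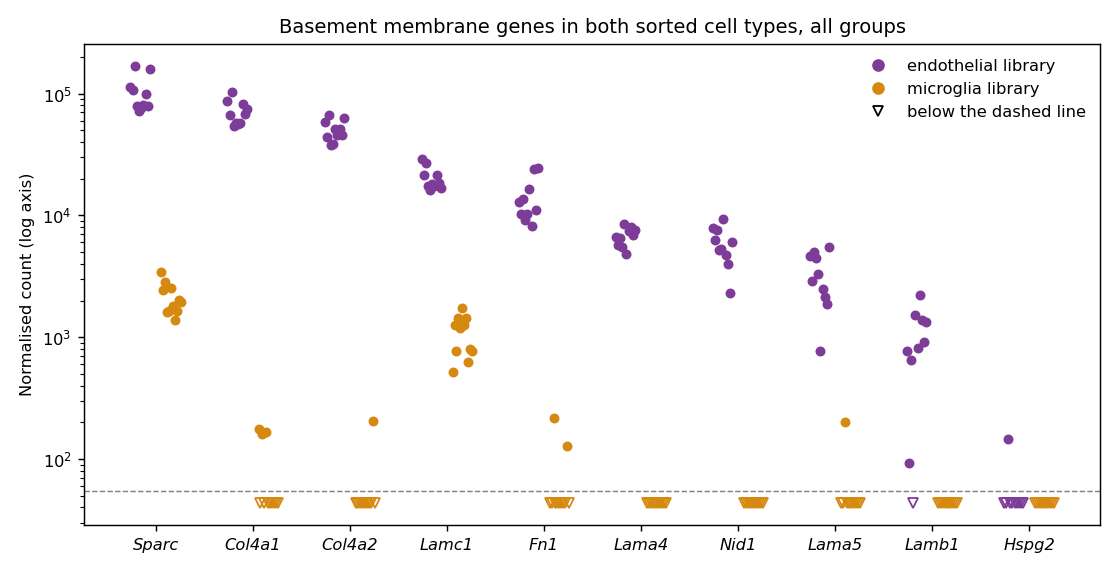
Normalised counts (vertical log axis) of the 10 members in every endothelial and microglia library (points), all groups together. Open triangles mark libraries below 54.3 counts (dashed line). Sparc and Lamc1 are the members above the line in all 11 microglia libraries, and each lies below its endothelial range.

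Microglia served as the contrast, since they do not build the vessel wall. Of the 10 members, 2 were above 54.3 counts in all 11 microglia libraries, Sparc and Lamc1. The tables of the 2 cell types were normalised separately, so levels set across them are approximate. In PBS, Sparc stood at 2941 ± 724 counts (SD, n = 2) in microglia, with 44.2 times as much in endothelial cells. Lamc1 stood at 884 ± 520 (n = 2), with 29.2 times as much in endothelial cells. Col4a1 reached 177 counts in PBS A, 160 in WT A and 165 in WT C and was below 54.3 in the other 8 libraries. Col4a2 was above 54.3 in 1 library, KO2 B, at 207 counts, where Fn1 also stood at 127. Fn1 had 217 counts in WT A, where Lama5 had 202, and both were below 54.3 elsewhere except for that Fn1 value in KO2 B. Lama4, Lamb1, Nid1 and Hspg2 were below 54.3 in every library. The summed endothelial markers in microglia were 326 to 940 counts, highest in KO2 B, next in WT A with 677, and lowest in WT C. By median, Kdr (342 counts) and Pecam1 (104) led that list, and every other marker had a median of at most 4.74. KO2 B also had the highest sums for markers of choroid plexus and ependyma (12672) and of border macrophages (16130). The part of RNA from endothelial or other cells in these values was not tested.

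Microglial Sparc had 3453 and 2429 counts in PBS A and B, and 2850, 1602 and 1649 in WT A, B and C. The KO1 libraries ranged from 1374 to 2511 counts and the KO2 libraries from 1635 to 2027. PBS A was the highest, and PBS B lay below WT A and KO1 A. The mean of the exosome groups minus PBS was -0.33 on the log2 scale (95% interval -0.65 to -0.01, adjusted p = 0.838, limma). Sparc was the 1 member of 4 with an unadjusted p below 0.05 there, against 5.76% of all genes, of which 0.00958% passed after adjustment. The same held for the knockout mean minus PBS (-0.35, 95% interval -0.68 to -0.01), against 5.44%.

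Microglial Lamc1 was higher in the KO1 than in the KO2 libraries. It had 516 and 1251 counts in PBS A and B, and 773, 1440 and 1185 in WT A, B and C. It had 1744, 1257 and 1424 in KO1 A, B and C, and 623, 794 and 774 in KO2 A, B and C. All KO1 libraries were above all KO2 libraries, against 4.02% of all genes, with a log2 difference of 0.34 (95% interval 0.07 to 0.61, adjusted p = 1, limma). Its unadjusted p was below 0.05, against 3.4% of all genes. For WT minus PBS the difference was 0.13 (-0.17 to 0.43). In microglia Col4a2 was higher in all 6 knockout libraries than in PBS, against 3.72% of all genes, but 5 of the 6 were below 54.3 counts.

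The rest of the matrix machinery was read from 5 lists. In endothelial cells no gene of any list passed in any comparison (limma, Benjamini-Hochberg over all genes). Of 20 other basement membrane components, 7 were tested and 5 of these were lower with WT exosomes than with PBS (median -0.17), against 51.8% of all genes. At an unadjusted p below 0.05 there was 1 of the 7, against 10.9% of all genes, the background for the lists that follow as well. Col18a1, the source of endostatin, stood at 3669 ± 528 counts in PBS (n = 3) and 9616 ± 687 with WT (n = 2), a log2 difference of 0.50 (adjusted p = 0.342, limma). Lamb2 differed by -0.33 (adjusted p = 0.5), with 1 library at the floor. The collagen IV chains Col4a4, Col4a5 and Col4a6 stood at the floor in 9, 9 and 8 of the 10 libraries, and the laminin chains Lama1, Lama2, Lama3, Lamb3 and Lamc3 in all 10.

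Of 15 matrix receptors, 9 were tested and 8 of these were lower with WT (median -0.03). Of the 9, 3 had an unadjusted p below 0.05. Itgb3, the integrin beta 3 subunit, which binds fibronectin among other ligands, stood at 15990 ± 3730 counts in PBS (n = 3) and 9714 ± 550 in WT (n = 2). Its difference was -0.34 (adjusted p = 0.354), and 0.37 for knockout minus WT (adjusted p = 0.378, limma). Itga6, a laminin-binding subunit, differed by -0.24 for WT minus PBS (adjusted p = 0.39).

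Of 20 genes for collagen folding and crosslinking, 13 were tested and 10 of these were higher with WT exosomes (median 0.11), against 48.2% of all genes. None had an unadjusted p below 0.05, and P4ha2, a collagen prolyl hydroxylase subunit, had the smallest p at a difference of 0.18 (adjusted p = 0.599, limma). Of 14 genes for heparan sulfate chains, 9 were tested, 4 higher and 5 lower (median -0.02), and none at an unadjusted p below 0.05, with Extl3 at -0.24 and Ext1 at 0.18 (adjusted p = 0.551 and 0.592, limma). Of 20 genes for elastic, fibrillar and matricellular matrix, 4 were tested, 2 of them at an unadjusted p below 0.05. Thbs1, the matricellular protein thrombospondin-1, stood at 134 ± 121 counts in PBS (n = 3) and 3442 ± 1611 in WT (n = 2), with a difference of 0.69 (adjusted p = 0.255) and of -0.55 for knockout minus WT (adjusted p = 0.38, limma). Mmrn2, an endothelial matrix protein, differed by -0.44 for WT minus PBS (adjusted p = 0.335). In microglia no list gene passed either, and of the other basement membrane components 6 of 20 were tested.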

How the data were processed

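The deposited tables hold log2-like variance-stabilised values per gene, made by the authors, for 10 endothelial and 11 microglia libraries, and the authors' deposited tables of genes from a likelihood ratio test hold p-values, log2 fold changes, a mean normalised count over libraries (a signal value) and a test score (362 endothelial and 238 microglia genes). The submitters' processing notes name FastQC 0.11.7, Trimmomatic 0.38, Salmon 0.10.0, DESeq2 1.18.1 and GRCm38.p6, without roles. Endothelial WT C and KO2 A and microglia PBS C were not analysed here. Of the 20555 gene IDs 20537 matched a symbol in the RefSeq table (GRCm38.p6). The filter of 0.25 above the floor is lower than the 1 used before, because the endothelial floor is high (13.2814), and 1 is among the alternatives.

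Normalised counts were recovered from the deposited log2 values by inverting the transform. In endothelial cells a closed form returned the authors' mean counts with a median ratio of 1.0000. In microglia a smooth curve through the authors' means was used, with a held-out error of at most 3.08%, and it is not anchored below 54.3 counts. Endothelial values fell within 0.05 of whole reads for 72.7% to 89.0% of the low values of a library, which gave the read totals, and no count model was run.

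Differences were fitted with limma 3.58.1 (R 4.3.3) with a mean-variance trend on the deposited log2 values, all 4 groups of a cell type in 1 fit, with Benjamini-Hochberg adjustment over all genes tested at 0.05. The groups without overlap and the correlations (100000 permutations, two-sided; SciPy 1.17.1) used the same values. The fit was tested on simulated data. Alternatives were other filters, pseudocounts, scalings, a replicate block, leaving out libraries, and a scaling to equal summed markers chosen after the marker sums were seen. All 10 members are named; of each pathway list those of smallest p, and the 3 genes most like Col4a1, Sparc and Fn1. A few further list genes (Col4a4, Col4a5, Col4a6 and laminin chains at the floor) were named after their values were seen. The members and lists were chosen with earlier results of these data known.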

Additional observations from a re-analysis of the deposited data

Results flagged for a closer look

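For 2 members, each in 1 comparison with PBS, the cell types lay on opposite sides of their PBS means. This held for every exosome library of that comparison, but not over all exosome groups together. The difference between the cell types was not tested, and the share of all genes that meet this rule was not computed. Lamb1 for knockout minus PBS was 0.21 on the log2 scale in endothelial cells (5 knockout libraries) and -0.12 in microglia (6 knockout libraries), where 10 of the 11 libraries stood at the floor. The microglial difference rests on PBS B alone, at 0.546 counts. Fn1 for WT minus PBS was -0.16 in endothelial cells (2 WT libraries) and 0.46 in microglia (3 WT libraries), where both PBS libraries stood at the floor and 2 of the 3 WT libraries were below 54.3 counts. With PBS at the floor, any WT value above the floor counted as higher.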

How the results depend on the processing

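No member was called in any alternative, over 940 endothelial tests (21 alternatives, smallest adjusted p 0.108, limma) and 460 microglia tests (22 alternatives, 0.558). All 1365 member differences stayed on their side of the threshold. The number of other genes called did move, and the cause was not tested. In endothelial cells WT minus PBS went from 1 gene to 0 with the filter at 1, 9 without a filter, 12 with only the groups compared, and 3 on log2 counts with either pseudocount (50 or 5), with equal totals or with equal summed markers. Leaving out 1 library gave 0 to 15 (15 without WT B). Knockout minus WT went from 2 to 0 with the filter at 1, with only the groups compared or without the C libraries, 6 without a filter, 9 with a pseudocount of 5, and 0 to 28 without 1 library (28 without WT B). Knockout minus PBS went from 0 to 17 without a filter and 1 without the C libraries. KO1 minus KO2 went from 0 to 1 with the filter at 1 and 3 without a filter. All exosomes minus PBS went from 0 to 26 without a filter, 2 without the C libraries, and 0 to 2 without 1 library. In microglia WT minus PBS went from 0 to 1 without a filter, without the trend, or on log2 counts with a pseudocount of 50 (also with equal totals or equal markers), and 0 to 1 without 1 library. Knockout minus PBS went from 0 to 2 on those log2 counts, to 1 without a filter, with quantile normalisation, without the trend or without the C libraries, and 0 to 1 without 1 library. Knockout minus WT gave 0 to 1 without 1 library, and KO1 minus KO2 1 without a filter. All exosomes minus PBS went from 1 to 0 with the filter at 1 or a pseudocount of 5, 2 on the other log2 counts, 5 without the C libraries, and 0 to 2 without 1 library. A library left alone in its group is assumed to vary like the other groups.

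The letters were tested as pairs. Same-letter libraries had residual correlations of 0.026 to 0.258 (endothelial cells) and 0.007 to 0.364 (microglia). All were positive, and where groups share 3 letters each library was most alike to that of its own letter, but not every pair was above 0.1 and the labels do not say what a letter stands for, so the letters were not used as pairs. With the replicate block 0 genes were called for WT minus PBS and for knockout minus WT in endothelial cells, and 17, 11 and 25 in microglia for WT, knockout and all exosomes minus PBS. No member was called with the block, but for knockout minus PBS in endothelial cells 3 members in place of 1 had an unadjusted p below 0.05: Lamc1, Sparc (-0.35, 95% interval -0.64 to -0.067, adjusted p = 0.543, limma) and Col4a1 (-0.28, -0.54 to -0.014, adjusted p = 0.641, limma). The share of all genes at that level with the block is not given here, so this count is not a result about the members. The correlations of Col4a1 with Col4a2 and with Sparc fell to 0.72 and 0.64 after the group means were subtracted. Low or absent counts limit what can be seen of Lamb1 and Hspg2 in endothelial cells, and of all members but Sparc and Lamc1 in microglia.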
